A study of Homo sapiens with 15 samples.

Results

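The response of MH7A cells to IL-1β in the presence of alloxan was measured against resting cells. MH7A cells are an established line of human fibroblast-like synovial cells, so that all arrays come from 1 line. The comparison rests on 6 of the 15 arrays of the study, chosen by their labels: 3 of cells given IL-1β with alloxan and 3 of untreated cells, 1 of each in each of 3 separate experiments. Cells were stimulated for 13 h, at an IL-1β concentration of 15 pg/ml. Alloxan was added for 30 min at 5 mM and was afterwards kept at 2 mM. The 3 arrays of IL-1β alone, run in the same experiments, serve to separate what IL-1β did from what differed once alloxan was added. The remaining 6 arrays, IL-1β with GlcN (glucosamine, 5 mM from 2.5 h before IL-1β) with and without alloxan, are used to repeat the alloxan contrast on other arrays. No group received alloxan without IL-1β. Against resting cells the 2 agents therefore cannot be told apart, and in cultures measured whole, a change in some of the cells and a change per cell cannot be told apart either.

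IL-1β binds its receptor on fibroblast-like synovial cells and, through MyD88, IRAK kinases and TRAF6, releases NF-κB from its inhibitor IκBα. NF-κB then raises chemokines, cytokines and adhesion molecules and, as feedback, its own inhibitors. Alloxan is used as an inhibitor of the O-GlcNAc transferase OGT. It is also known as a redox-active compound that kills pancreatic beta cells in rodents.

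The values were log2 RMA signals on Human Gene 1.0 ST arrays for 16872 genes. Median array signals lay near 6.2 in experiment 1, between 7.1 and 7.2 in experiment 2 and near 7.5 in experiment 3, so levels are read within an experiment and differences are taken between arrays of the same experiment. Differences were tested with limma over all 15 arrays with the experiment as a block. A gene is called when its Benjamini-Hochberg adjusted p over all genes is under 0.05. The error given for a gene is the SD of its differences in the 3 experiments. Of 20 synovial fibroblast markers, 12 stood above the 50th percentile of the array in each of the 3 groups without GlcN. Vimentin (VIM) was at the 98.7th percentile with IL-1β and alloxan, while the fibroblast genes PDGFRA, DCN and PRG4 were at the 26.2nd, 11.9th and 14.4th. Of the markers of other cells measured there, 2 of 12 for macrophages, 1 of 12 for lymphocytes, 2 of 11 for endothelium and 5 of 11 for epithelium stood above the 50th percentile.

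Sequences of 4 promoters and 2 miRNAs are shown to identify genes described below. The promoters are those of 3 NF-κB targets that rose and of the gene with the largest rise among immediate early genes. The miRNA genes are 2 picked among those whose signal was lower with alloxan than with IL-1β alone. Promoters span 250 bases before to 50 bases after the gene's start in RefSeq (assembly GRCh38.p14), and 13149 of the tested genes had one there. Capitals mark the κB consensus in the first 3 and the CArG box, the element bound by serum response factor, in EGR1. Both strands were searched, and the κB capitals of CXCL2 hold 2 overlapping matches.
NFKBIA, chr14:35404700-35404999, minus strand: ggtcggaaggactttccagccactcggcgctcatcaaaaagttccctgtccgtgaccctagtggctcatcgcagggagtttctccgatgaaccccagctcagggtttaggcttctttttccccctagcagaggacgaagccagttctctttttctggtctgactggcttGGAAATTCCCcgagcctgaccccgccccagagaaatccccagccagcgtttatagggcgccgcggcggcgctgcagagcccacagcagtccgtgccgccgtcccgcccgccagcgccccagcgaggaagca
IL6, chr7:22726950-22727249, plus strand: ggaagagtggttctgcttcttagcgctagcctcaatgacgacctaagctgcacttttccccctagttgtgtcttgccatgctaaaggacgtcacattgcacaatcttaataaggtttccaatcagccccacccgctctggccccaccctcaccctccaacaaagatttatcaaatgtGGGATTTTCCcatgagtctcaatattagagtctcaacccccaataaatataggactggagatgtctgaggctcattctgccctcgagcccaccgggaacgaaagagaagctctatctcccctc
CXCL2, chr4:74099146-74099445, minus strand: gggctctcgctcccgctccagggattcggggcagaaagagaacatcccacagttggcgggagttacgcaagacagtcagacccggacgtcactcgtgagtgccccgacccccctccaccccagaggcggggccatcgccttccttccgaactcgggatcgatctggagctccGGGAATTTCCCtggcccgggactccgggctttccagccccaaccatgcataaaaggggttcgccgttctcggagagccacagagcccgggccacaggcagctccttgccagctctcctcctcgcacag
EGR1, chr5:138465229-138465528, plus strand: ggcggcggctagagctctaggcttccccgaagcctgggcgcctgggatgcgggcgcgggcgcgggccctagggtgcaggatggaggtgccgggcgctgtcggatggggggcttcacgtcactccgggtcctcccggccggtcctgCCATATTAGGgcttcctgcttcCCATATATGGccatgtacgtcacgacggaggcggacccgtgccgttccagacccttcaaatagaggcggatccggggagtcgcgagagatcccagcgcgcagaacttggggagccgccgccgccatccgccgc
For the miRNAs the mature sequence is given, with the seed (bases 2 to 8) in capitals. Their seeds differ.
hsa-miR-21-5p, chr17:59841273-59841294, plus strand: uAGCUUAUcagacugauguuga
hsa-miR-221-3p, chrX:45746180-45746202, minus strand: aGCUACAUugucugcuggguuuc
The κB consensus was found in 13.6% of the 27305 promoters in the table, in 15.7% of those of tested genes, and in 13 of the 25 NF-κB targets with a promoter there (52.0%). The CArG box was in 1.3% of all promoters. A match is a description of the letters and not a bound site.

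Against resting cells, IL-1β with alloxan raised 991 genes (5.87% of those tested) and lowered 1354 (8.03%). Of these, 92 were higher and 280 lower by at least 1.5-fold, and 10 and 46 by at least 2-fold. Against IL-1β alone, cells with alloxan had 1034 genes higher (6.13%) and 1216 lower (7.21%), of which 106 and 225 differed by at least 1.5-fold. IL-1β alone against resting cells gave 0 genes in either direction (0% of those tested) in limma. There, 491 were higher and 486 lower at an unadjusted p under 0.05, and the smallest adjusted p was 0.169. The median difference of all genes was 0.02 against resting cells and also 0.02 against IL-1β alone (log2). These calls rest on the spread of all 5 groups. When only the 6 arrays of a contrast were fitted, still with the block, 0 genes passed in limma in either direction for either alloxan contrast, and without the block 0 passed. Without experiment 1, 2 or 3, 298, 373 and 245 genes were higher and 634, 680 and 482 lower against resting cells, and 263, 294 and 356 were higher and 509, 591 and 405 lower against IL-1β alone. Without the alloxan array of experiment 1, 2 or 3 alone, 560, 645 and 635 genes were higher against resting cells and 607, 587 and 646 against IL-1β alone. The number higher against resting cells was 596 and 603 without the resting array of experiment 2 or 3, and the number higher against IL-1β alone was 531 without the IL-1β array of experiment 2. Fewer were also lower without the alloxan array of experiment 1 (851 against resting cells and 733 against IL-1β alone) and, against IL-1β alone, without that of experiment 3 (759). For the 2 alloxan contrasts, each array or experiment not named here left its count within 1.5 times. For IL-1β alone against resting cells, 5 genes were called higher and 1 lower without the resting array of experiment 2, and 1 higher without experiment 1.

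Genes of the classical IL-1β response rose under alloxan. Counts over a list against resting cells are to be read beside the 5.87% of all genes that were higher and the 8.03% that were lower. For counts against IL-1β alone these shares are 6.13% and 7.21%, and for alloxan with GlcN 3.27% and 3.52%. Of 30 tested NF-κB targets, 16 were higher than in resting cells, 0 were lower and 29 had a positive difference, with a list median of 0.39 against 0.02 for all genes (log2). Against IL-1β alone, which tests the difference between the responses with and without alloxan, 5 were higher (CXCL8, CYLD, CD83, NFKBIE and CXCL2), 1 was lower (CCL5) and the median was 0.12. IL-1β alone against resting cells had a median of 0.19 for the list, with 0 members called in limma and 15 higher and 0 lower at an unadjusted p under 0.05. Without experiment 1, 2 or 3 in turn, 4, 11 and 5 members were called higher against resting cells, and 2, 2 and 1 against IL-1β alone. Without the alloxan array of experiment 1, 9 were higher against resting cells and 2 against IL-1β alone, where the IL-1β array of experiment 2 or 3 or the alloxan array of experiment 3 left out gave 2, 1 and 3. The list median against resting cells was 0.64, 0.22 and 0.39 in experiments 1, 2 and 3, and 0.24 without experiment 1. Against IL-1β alone it was 0.07 without the alloxan array of experiment 1, and also 0.07 without the IL-1β array of experiment 3. The list was written with the study's IL-1β genes known, so that its direction is not independent evidence.

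The largest rise was that of TNFRSF9 (4-1BB), which costimulates T cells. Its signal was 9.65, 9.86 and 9.98 in experiments 1, 2 and 3 with IL-1β and alloxan, 9.91, 9.95 and 9.78 with IL-1β alone, and 6.87, 8.82 and 8.18 in resting cells (log2). In each experiment both stimulated arrays lay above the resting one. The largest changes with alloxan, here and below, were picked among called genes with the same sign in every experiment. For those genes the agreement of the alloxan difference between experiments therefore follows from the choice. The log2 difference was 1.87 ± 0.88 (SD, n = 3) against resting cells, a 3.67-fold rise (limma adjusted p = 0.00177), and 1.91 without experiment 3, where the call was lost (limma adjusted p = 0.0767). Against IL-1β alone it was -0.05 ± 0.23 (SD, n = 3; limma adjusted p = 0.972).

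CXCL8, which encodes the neutrophil chemokine IL-8, rose further with alloxan than with IL-1β alone. It was at 8.09, 8.08 and 8.08 with IL-1β and alloxan, at 6.85, 7.26 and 7.43 with IL-1β alone, and at 5.65, 6.88 and 7.20 in resting cells. In each experiment the array with alloxan was the highest and IL-1β alone stood between alloxan and resting cells. The difference was 1.51 ± 0.83 against resting cells (SD, n = 3; limma adjusted p = 0.00107) and 0.90 ± 0.30 against IL-1β alone (SD, n = 3; limma adjusted p = 0.0186). The second call was lost when the alloxan array of experiment 1 was left out (0.61, limma adjusted p = 0.0667), when either IL-1β array of experiment 2 or 3 was left out (0.86 in both cases, limma adjusted p = 0.0714 and 0.0611), and without experiment 2 or 3 (0.95 and 1.03, limma adjusted p = 0.181 and 0.101).

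IL6, the cytokine that drives the acute phase response, was at 7.75, 8.09 and 8.77 with IL-1β and alloxan, at 8.03, 8.63 and 8.59 with IL-1β alone, and at 6.26, 7.59 and 7.68 in resting cells. In every experiment both stimulated arrays lay above the resting one, and alloxan lay below IL-1β alone in 2 of 3. The rise against resting cells was 1.03 ± 0.50 (SD, n = 3; limma adjusted p = 0.00574), and the call was lost without experiment 1 or 3 (0.80 and 0.995, limma adjusted p = 0.0746 and 0.0911). NFKBIA, which encodes IκBα, rose by 1.07 ± 0.49 (SD, n = 3; limma adjusted p = 0.00128), from differences of 1.49, 0.53 and 1.19 in experiments 1, 2 and 3, and lost its call without experiment 3 (1.01, limma adjusted p = 0.0685). For both genes the difference from IL-1β alone did not pass, at -0.21 for IL6 (limma adjusted p = 0.58) and 0.22 for NFKBIA (limma adjusted p = 0.447).

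The other feedback inhibitors and subunits of NF-κB followed the same direction. TNFAIP3, the ubiquitin-editing enzyme A20, rose by 0.88, NFKB2 by 0.73, RELB by 0.66, NFKBIZ by 0.56 and NFKBIE by 0.53 (log2, against resting cells). CYLD, a deubiquitinase that limits NF-κB signalling, rose by 0.76 ± 0.26 (SD, n = 3) and also differed from IL-1β alone, by 0.69 (limma adjusted p = 0.00128), whereas IL-1β alone differed from resting cells by 0.07. TRAF6, the ubiquitin ligase of the IL-1 receptor pathway, had the same form, at 0.73 against resting cells (limma adjusted p = 0.00139) and 0.87 against IL-1β alone (limma adjusted p = 0.00053). Both CYLD and TRAF6 are also listed by the study as raised by GlcN itself. Of 23 tested genes of IL-1 receptor signalling, 3 were higher against resting cells (TRAF6, IRAK2 and MAP3K8) and 0 lower. TNF and the IL-10 family cytokine IL24 did not pass, at 0.14 (limma adjusted p = 0.41) and 0.04 (limma adjusted p = 0.88).

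**Figure D1:**
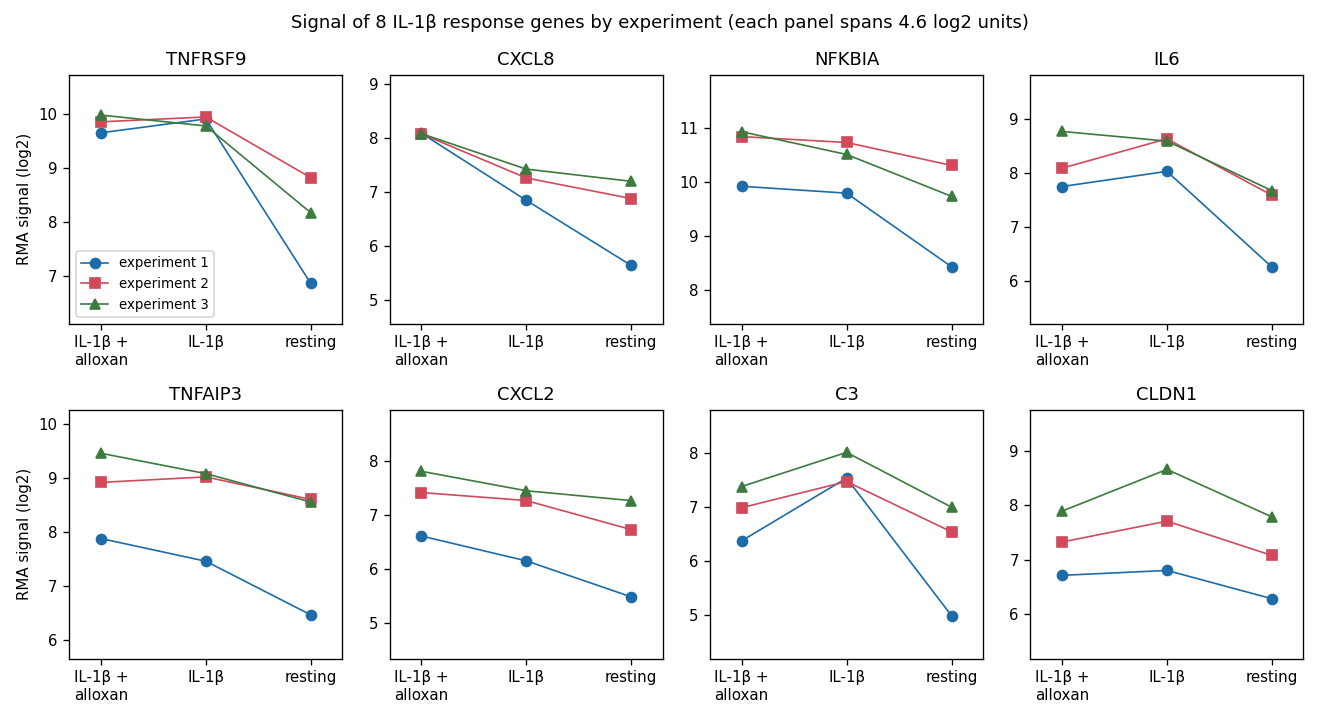
Log2 RMA signal of 8 IL-1β response genes in IL-1β with alloxan, IL-1β alone and resting cells, with 1 line per experiment and each panel spanning 4.6 log2 units. TNFRSF9 is about as high with as without alloxan (-0.05), CXCL8 is highest with alloxan in every experiment, and C3 and CLDN1 peak with IL-1β alone.

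Among cytokines and colony-stimulating factors, 5 of 19 rose against resting cells and 0 fell. IL32, a proinflammatory cytokine, rose by 0.58, IL1A by 0.49, the macrophage growth factor CSF1 by 0.35 and IL1B by 0.22, and the fifth was IL6. Against IL-1β alone, 0 of the 19 passed in limma, near the shares of all genes (6.13% higher and 7.21% lower). At an unadjusted p under 0.05, 1 was higher and 0 lower. Of 18 chemokines, CXCL8, CXCL2 and CCL2 rose, by 1.51, 0.78 and 0.25, and 0 fell. The calls of CCL2, IL1A and the kinase MAP3K8 against resting cells, and of CXCL2, CD83, NFKBIE and CCL5 against IL-1β alone, were each lost without at least 1 single array.

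Some genes with a positive difference for IL-1β alone stood lower with alloxan. Of these, C3, CFB and CLDN1 did not pass against IL-1β alone when all arrays were used. Fits with arrays left out, in which they passed, are given to show the dependence on single arrays and not as support. C3, the central complement component, was at 6.38, 6.99 and 7.38 with IL-1β and alloxan, at 7.54, 7.47 and 8.01 with IL-1β alone, and at 4.99, 6.54 and 7.0 in resting cells. In each experiment the alloxan array lay between the other two. The difference was 0.74 ± 0.56 against resting cells (SD, n = 3; limma adjusted p = 0.0565) and -0.76 ± 0.36 against IL-1β alone (SD, n = 3; limma adjusted p = 0.0519), neither of which passed. Both passed without experiment 1, at 0.41 (limma adjusted p = 0.0196) and -0.56 (limma adjusted p = 0.0122), and the difference from IL-1β alone also without the IL-1β array of experiment 2 (-0.955, limma adjusted p = 0.0401). CFB, a protease component of the alternative complement pathway, was -0.01 against resting cells and -0.60 against IL-1β alone (limma adjusted p = 0.0628, and 0.0135 without the IL-1β array of experiment 3), with 0.58 for IL-1β alone against resting cells. CLDN1, a tight junction protein, was 0.26 against resting cells and -0.42 against IL-1β alone (limma adjusted p = 0.115, and 0.0254 without the IL-1β array of experiment 1).

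The miRNA genes shown above had the same form, and were picked after their values were seen. The array cluster of MIR21 was at 8.23, 8.81 and 8.22 with IL-1β and alloxan, at 8.58, 9.28 and 8.91 with IL-1β alone, and at 7.89, 8.39 and 8.12 in resting cells. Alloxan fell between the other two in 3 of 3 experiments. It was 0.28 above resting cells (limma adjusted p = 0.251) and fell by 0.51 against IL-1β alone (limma adjusted p = 0.0411). MIR221 fell by 0.63 against IL-1β alone (limma adjusted p = 0.0372) and was 0.12 above resting cells. These clusters report precursor or host RNA, and mature miRNA was not measured.

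Other genes that rose had differences near 0 for IL-1β alone. GDF15, a stress-induced cytokine of the TGF-β superfamily, was at 10.29, 11.38 and 11.69 with IL-1β and alloxan, at 8.64, 9.98 and 9.86 with IL-1β alone, and at 8.74, 9.95 and 10.16 in resting cells. The alloxan array was the highest in every experiment and the other two differed by at most 0.30. The difference against resting cells was 1.51 ± 0.06 (SD, n = 3; 2.84-fold; limma adjusted p = 1.11e-05). Against IL-1β alone it was 1.63 ± 0.21 (SD, n = 3; limma adjusted p = 9.43e-06).

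EGR1, the zinc finger transcription factor of the immediate early response, was at 11.21, 12.31 and 12.26 with IL-1β and alloxan, at 9.80, 10.77 and 11.13 with IL-1β alone, and at 9.97, 10.86 and 10.98 in resting cells. It rose by 1.32 ± 0.10 against resting cells (SD, n = 3; limma adjusted p = 2.42e-05), while IL-1β alone differed from resting cells by -0.04. Its promoter above carries 2 CArG boxes, while the box was in 2 of the 19 tested immediate early genes with a promoter in the table and in 1 of the 13 of these that were higher. Of 26 tested immediate early genes, 16 were higher against resting cells and 0 lower, with a median of 0.32, and 14 were higher and 0 lower against IL-1β alone, with a median of 0.25. NR4A2 and NR4A1, orphan nuclear receptors, rose by 0.78 and 0.62, ATF3 by 0.73, and the AP-1 subunits FOS, JUNB and FOSB by 0.65, 0.57 and 0.50. JUN and MYC did not pass, at 0.07 and -0.08. Of 20 ERK feedback genes, 4 were higher, against 5.87% of all genes, and 1 was lower (ETV1, at -0.38), against 8.03%. The higher ones were SPRY4 at 0.66, the ETS factor ETV4 at 0.60 and the phosphatases DUSP6 and DUSP5 at 0.57 and 0.39.

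Genes listed as p53 targets had 13 of 26 higher and 0 lower against resting cells (median 0.22), and 15 higher and 0 lower against IL-1β alone (median 0.27). CDKN1A, the cyclin-dependent kinase inhibitor p21, was at 9.01, 10.33 and 10.59 with IL-1β and alloxan, at 8.15, 9.42 and 9.69 with IL-1β alone, and at 8.38, 9.55 and 9.63 in resting cells, so that alloxan was highest in each experiment. It rose by 0.79 ± 0.17 (SD, n = 3; limma adjusted p = 5.04e-05). The death receptors TNFRSF10B and FAS rose by 0.59 and 0.57, GADD45A by 0.62, the sestrin SESN2 by 0.61 and MDM2, the ubiquitin ligase of p53, by 0.24. Several of these are also targets of other stress pathways. The activity of p53 itself was not measured, and whether it had a part in these rises was not tested. Left out in turn, the 3 experiments gave 8, 9 and 8 p53 targets called against resting cells and 11, 9 and 10 against IL-1β alone. For the immediate early genes they gave 6, 10 and 9 against resting cells and 3, 7 and 7 against IL-1β alone, and leaving out the alloxan array of experiment 1 or 3 or the IL-1β array of experiment 3 gave 9 against IL-1β alone. Against resting cells, 10 were called without the resting array of experiment 3.

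NQO1, a quinone reductase induced by NRF2, was at 10.23, 10.94 and 11.41 with IL-1β and alloxan, at 9.31, 9.85 and 10.68 with IL-1β alone, and at 9.29, 10.02 and 10.66 in resting cells. It rose by 0.87 ± 0.11 against resting cells (SD, n = 3; limma adjusted p = 6.21e-05). The list of NRF2 and antioxidant genes had 6 of 25 higher and 1 lower (ABCC1, at -0.25), with a median of 0.00. HMOX1 and TXNRD1, also NRF2 targets, were at -0.19 and -0.05 and did not pass. Of the metal-binding metallothioneins, MT1E, MT1G, MT1F and MT1X rose, by 0.58, 0.44, 0.42 and 0.36. Metallothionein genes are near-identical in sequence, and the probes may not separate them. The zinc importer SLC39A10 fell by 1.29. TXNIP, which responds to glucose through MondoA, rose by 0.44 against resting cells and by 0.76 against IL-1β alone, and the glucose transporter SLC2A3 rose by 0.83, with its near-identical neighbour SLC2A14 at 0.46. OGT and OGA, the enzymes that add and remove O-GlcNAc, did not pass, at -0.00 and -0.03 (limma adjusted p = 1 and 0.876). The amino acid stress factor ATF4 and its partner DDIT3 (CHOP) rose by 0.34 and 0.56. Of 36 ATF4 targets, 9 were higher and 1 was lower (ALDH1L2, at -0.85).

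The rest of the 12 largest rises against resting cells were the less studied genes ZNF619 (1.66), PGBD1 (1.54), SDR42E1 (1.41), ZSCAN26 (1.04), C17orf75 (0.99) and UQCC3 (0.99). Each of them is also on the study's list of genes raised by GlcN itself in IL-1β-stimulated cells. ZSCAN26 and UQCC3 stand there under older symbols. These rises are therefore not particular to alloxan. ZNF619 encodes a zinc finger protein and was at 7.52, 8.09 and 8.41 with IL-1β and alloxan, at 5.82, 5.80 and 7.23 with IL-1β alone, and at 5.82, 6.11 and 7.09 in resting cells. The call of C17orf75 was lost without the resting array of experiment 2 (0.72, limma adjusted p = 0.0981) and without the alloxan array of experiment 1 or 2 (1.06 and 0.79, limma adjusted p = 0.0548 and 0.0928), and without any of the 3 experiments.

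**Figure D2:**
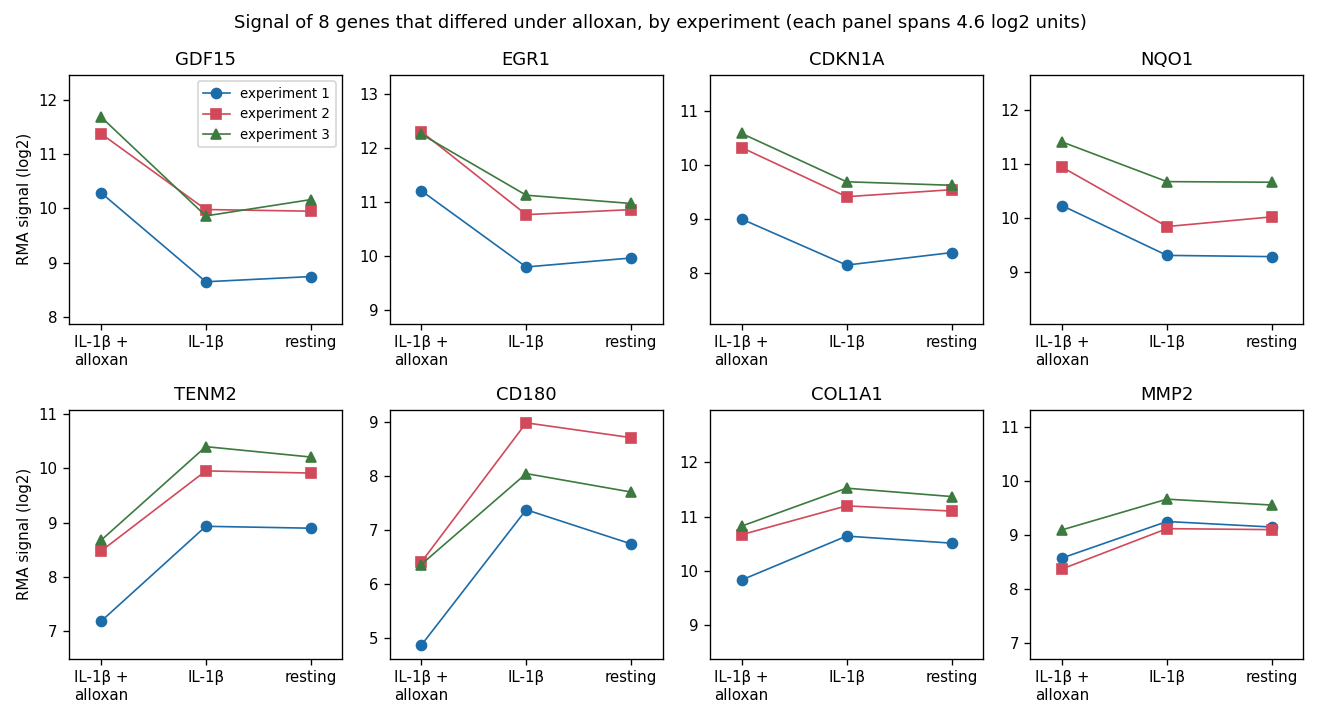
Log2 RMA signal of 8 genes in IL-1β with alloxan, IL-1β alone and resting cells, with 1 line per experiment and each panel spanning 4.6 log2 units. GDF15, EGR1, CDKN1A and NQO1 are highest and TENM2, CD180, COL1A1 and MMP2 lowest with alloxan in every experiment, while IL-1β alone stays near resting cells except for CD180, where it is higher by 0.42. For GDF15, EGR1, TENM2 and CD180 this agreement follows from their choice among genes with the same sign in every experiment.

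Lower genes included the fibroblast matrix. Of 33 collagens and matrix genes, 12 were lower against resting cells and 0 higher (median -0.20), and 18 were lower and 0 higher against IL-1β alone (median -0.29). The matricellular protein POSTN fell by 0.91, the type I collagen chains COL1A2 and COL1A1 by 0.72 and 0.56, COL11A1 by 0.71, COL8A1 by 0.70, tenascin TNC by 0.51 and fibrillin FBN1 by 0.48. COL1A1 was at 9.83, 10.67 and 10.82 with IL-1β and alloxan, at 10.64, 11.20 and 11.53 with IL-1β alone, and at 10.51, 11.10 and 11.37 in resting cells. The alloxan array was the lowest in each experiment. The 3 microfibrillar chains COL6A1, COL6A2 and COL6A3 did not pass, at 0.14, 0.04 and 0.00. The calls of COL1A1 and COL1A2 were lost without experiment 2 (-0.61 and -0.75, limma adjusted p = 0.0772 and 0.0685), that of COL1A1 also without experiment 3 (limma adjusted p = 0.0541) and that of COL1A2 without experiment 1 (limma adjusted p = 0.0504). The list had 7, 4 and 8 members called against resting cells without experiments 1, 2 and 3, and 8, 10 and 14 against IL-1β alone, where it had 12 without the alloxan array of experiment 3. The receptor PDGFRB fell by 0.62, and 4 of 18 tested synovial fibroblast markers were lower (PDGFRB, COL1A1, COL1A2 and FN1), with VIM at -0.02 and THY1 at 0.03. The summed linear signal of the 20 markers ranged over the experiments from 13205 to 32341 with IL-1β and alloxan, from 16124 to 39049 with IL-1β alone and from 14965 to 36266 in resting cells. Their part in the matrix result was not tested, and the matrix and marker lists share COL1A1, COL1A2, COL3A1, FN1 and others.

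Matrix proteinases that differed were lower. Of 26 tested proteinases and inhibitors, 7 were lower and 0 higher against resting cells (median -0.11), and 8 were lower and 0 higher against IL-1β alone. MMP2, a gelatinase, fell by 0.59, tissue plasminogen activator PLAT by 0.44, and ADAMTS6, ADAMTS12, ADAMTS3 and ADAMTS1 by 0.55, 0.43, 0.41 and 0.37. The collagenase MMP1 and stromelysin MMP3 did not pass, at -0.63 and -0.25. Without experiment 1, 2 or 3, 3, 5 and 1 members were called against resting cells, and 3, 6 and 3 against IL-1β alone. Without the alloxan array of experiment 3, 4 were called against resting cells, and without the alloxan array of experiment 1 or 3 or the IL-1β array of experiment 1, 5 were called against IL-1β alone.

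Of 25 genes linked to sterol and fatty acid synthesis, enzymes and regulators among them, 6 were lower than in resting cells, against 8.03% of all genes. Of the rest, 1 was higher (TM7SF2) and the others did not pass, and the list median was -0.16. Without experiment 1, 2 or 3, 3, 3 and 5 were lower, and 4 were lower without any 1 of the 3 alloxan arrays or the resting array of experiment 1 or 2. ELOVL6, which elongates fatty acids, fell by 0.79 (limma adjusted p = 1.24e-05), acetyl-CoA carboxylase ACACA by 0.71 (limma adjusted p = 1.33e-05), farnesyl diphosphate synthase FDPS by 0.67, and LSS, which makes lanosterol, by 0.47. HMGCS1 and SREBF2, the sterol regulator, did not pass, at -0.08 and -0.05. Of 24 genes of the unfolded protein response, 7 were lower and 2 higher (ERN1 and CHAC1, at 0.25 and 0.62), the lower ones including the secreted ER factor MANF, which fell by 0.43, and XBP1, which fell by 0.35. Of the 25 YAP/TAZ targets, 7 were lower and 3 higher (GADD45A, CCN2 and LATS2, at 0.62, 0.34 and 0.17), with the largest decreases in the RNA-binding protein RBMS3 and TGFB2, which fell by 1.28 and 1.25.

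**Figure D3:**
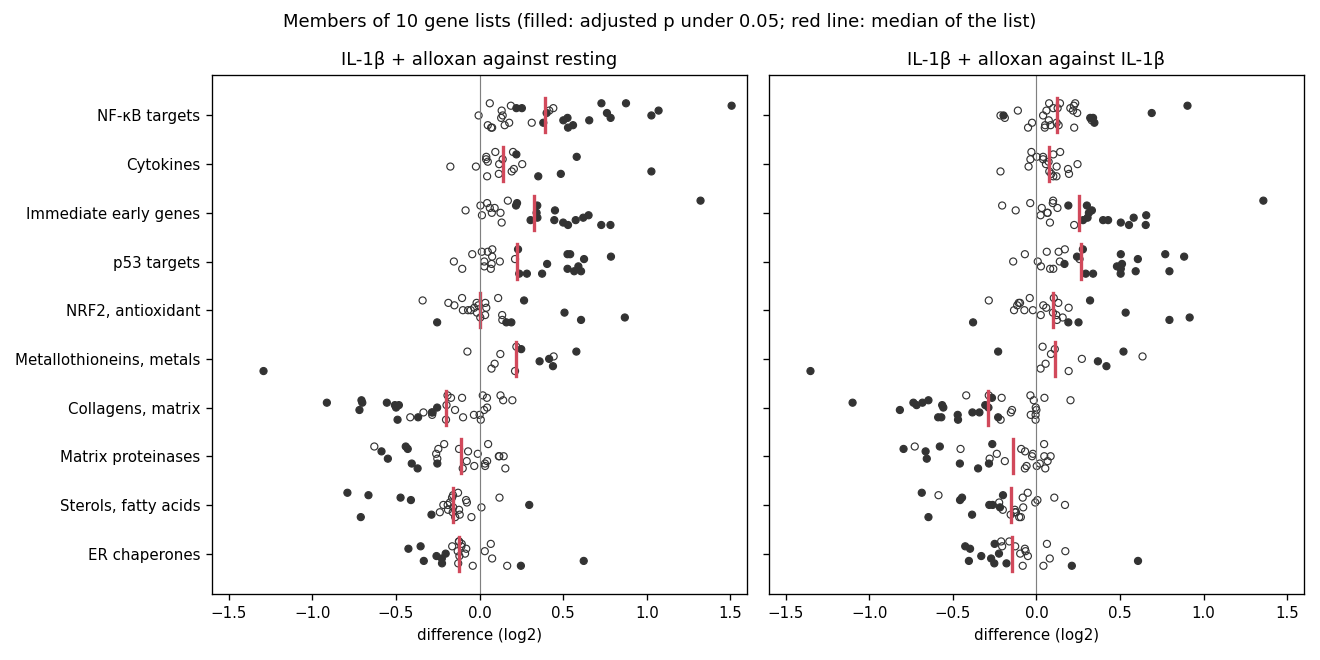
Log2 differences of the tested members of 10 gene lists, against resting cells on the left and against IL-1β alone on the right, with filled points for an adjusted p under 0.05 and a red line at the list's median. NF-κB targets have a median of 0.39 against resting cells and 0.12 against IL-1β alone, while the medians of immediate early genes (0.32 and 0.25) and of collagens and matrix (-0.20 and -0.29) are of like size in both.

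The largest decreases were outside these lists, and were likewise picked among called genes with the same sign in every experiment. CD180, a Toll-like receptor homologue, was at 4.87, 6.40 and 6.36 with IL-1β and alloxan, at 7.37, 8.98 and 8.04 with IL-1β alone, and at 6.74, 8.70 and 7.70 in resting cells. It fell by 1.84 ± 0.48 (SD, n = 3) against resting cells, to 0.28-fold (limma adjusted p = 0.00055). TENM2, a teneurin of cell adhesion, was at 7.17, 8.47 and 8.67 with IL-1β and alloxan, at 8.93, 9.96 and 10.40 with IL-1β alone, and at 8.90, 9.92 and 10.21 in resting cells. It had the smallest adjusted p of the comparison (limma adjusted p = 1.8e-06), fell by 1.57 ± 0.14 (SD, n = 3) and lay below both other arrays in each experiment. CPED1 fell by 1.65, DCDC2 by 1.61, the DNA translocase ZRANB3 by 1.46, the cadherins PCDH15 and FAT3 by 1.37 and 1.31, the formin DIAPH2 by 1.32, the sodium-calcium exchanger SLC8A1 by 1.30 and DPYD, which degrades pyrimidines, by 1.29. AMN1 and KPRP, at -1.32 and -1.31, completed the 12. Of these, CD180, KPRP, DCDC2, PCDH15 and CPED1 (under an older symbol) are also on the study's list of genes lowered by GlcN itself. The others are not on that list.

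Most of the 12 genes with the largest decrease were long. Gene length, the span from start to end in RefSeq (GRCh38.p14), was looked at after the values were seen and was known for 16850 of the 16872 genes. Of the 12 genes with the largest decrease, 9 spanned over 100 kb, from DCDC2 at 211.54 kb to PCDH15 at 1825.17 kb, while the longest of the 12 with the largest rise was TNFRSF9 at 24.97 kb. Over all calls against resting cells, the median length was 18.85 kb for the 991 higher genes and 106.58 kb for the 1354 lower genes, against 24.95 kb for all tested. Of the higher genes with a length 4.14% spanned over 100 kb, of the lower genes 52.44% and of all tested 17.03%.

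The share of genes called lower increased with each length class. It was 1.95% of 4668 genes under 10 kb, 3.48% of 4631 from 10 to 30 kb, 8.35% of 4682 from 30 to 100 kb, 20.67% of 2206 from 100 to 300 kb and 38.16% of 663 genes over 300 kb. The share called higher was 6.15%, 8.29%, 5.96%, 1.63% and 0.75% in the same classes, and the median differences were 0.04, 0.04, 0.01, -0.04 and -0.14 (log2). In the class over 300 kb the median was -0.15, -0.07 and -0.14 in experiments 1, 2 and 3. Against IL-1β alone the shares called lower were 2.21%, 3.43%, 7.05%, 17.50% and 35.75%. IL-1β alone against resting cells had 0 genes called in every class, in limma, and medians from -0.01 to 0.01.

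The share also varied with signal level. Genes over 300 kb were called lower in 10.94% of 320 cases in the dimmest of 3 equal groups of genes, 60.83% of 217 in the middle one and 68.25% of 126 in the brightest, where the median difference was -0.44. Within protein-coding genes alone, 38.45% of 658 were called lower in that class. When experiment 1, 2 or 3 was left out, 25.79%, 27.90% and 23.68% of the genes over 300 kb were called lower, against 0.60%, 0.66% and 0.58% of those under 10 kb. Lists differ in length too: the median member spanned 13.5 kb for NF-κB targets, 4.7 kb for immediate early genes, 24.1 kb for p53 targets, 51.8 kb for collagens and matrix, 13.7 kb for matrix proteinases and 20.6 kb for sterol and fatty acid genes. For YAP/TAZ targets it spanned 42.5 kb. The part of gene length in the values of these lists was not tested.

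**Figure D4:**
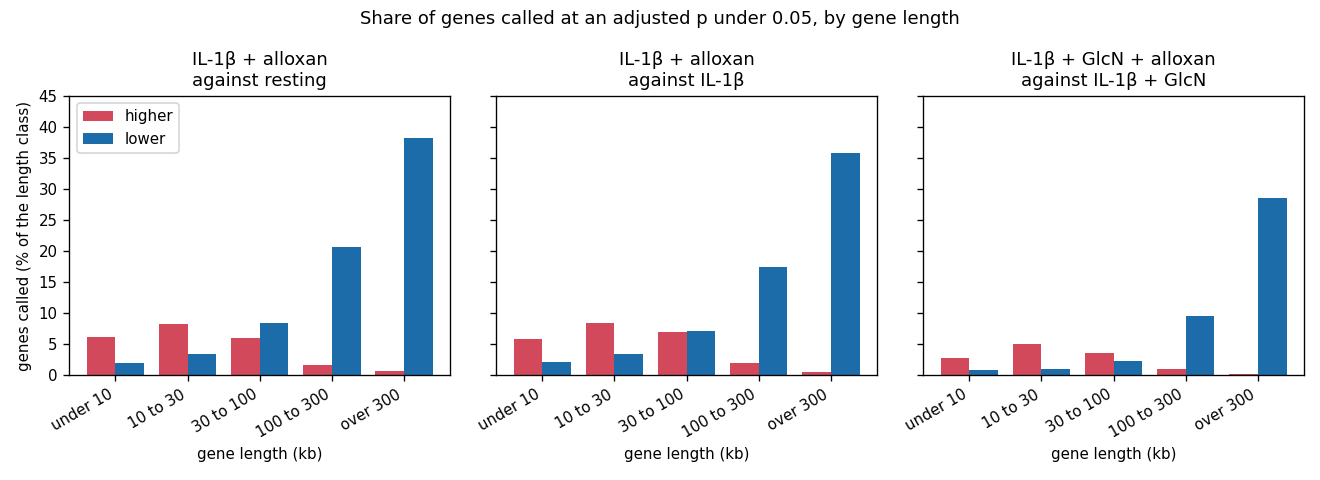
Percentage of genes called higher (red) and lower (blue) in 5 classes of gene length, for IL-1β with alloxan against resting cells, the same against IL-1β alone, and IL-1β with GlcN and alloxan against IL-1β with GlcN. In each comparison the share called lower is largest over 300 kb, at 38.16%, 35.75% and 28.51%.

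The alloxan contrast was repeated on arrays that the comparisons above did not use, with GlcN present in both groups. There, 551 genes were higher (3.27%) and 594 lower (3.52%) with alloxan. These counts moved with single arrays: 211, 66 and 20 were higher and 216, 152 and 137 lower without experiments 1, 2 and 3, and 341, 329 and 163 were higher without the alloxan array, or 853, 279 and 216 without the GlcN array, of each experiment in turn. Fewer were lower without the alloxan array of experiment 2 or 3 (394 and 376) and without the GlcN array of experiment 2 (384). The 2 contrasts share no array, though they come from the same experiments and one estimate of the spread. Of the 1034 genes higher with alloxan against IL-1β alone, 966 had the same sign with GlcN (93.4%, against 46.3% of all genes with a positive difference there), and 227 were called higher in both, which is 22.0% of the first list and 41.2% of the second. Of the 1216 lower, 1132 had the same sign (93.1%, against 52.5% of all genes) and 424 were called lower in both, 34.9% of the first list and 71.4% of the second. Their medians were 0.31 without GlcN and 0.15 with GlcN for the higher genes, and -0.38 and -0.20 for the lower ones. The higher and lower genes were chosen on the first contrast, so that the medians of the 2 contrasts are not on an equal footing. The lower genes were again long, with a median of 183.55 kb and 67.34% over 100 kb.

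EGR1 rose by 1.36 without GlcN and by 1.37 ± 0.18 with GlcN (SD, n = 3; limma adjusted p = 8.76e-05), a difference between the settings of -0.01 with an SE of 0.15. TXNIP rose by 0.76 and 0.72. TENM2 fell by 1.66 and 1.22, DPYD by 1.24 and 1.05 and SYT1, a synaptotagmin, by 1.31 and 1.18. GDF15 differed by 1.63 without GlcN and by 0.11 with it (limma adjusted p = 0.562), and this difference between the settings passed (1.52, limma adjusted p = 0.00515). CD180 fell by 2.25 without GlcN and was at -0.22 with it, a difference that did not pass (limma adjusted p = 0.062). The study lists GDF15 as raised and CD180 as lowered by GlcN itself. Their levels before alloxan is counted therefore differ between the settings. NF-κB targets had 0 members called in either direction with GlcN in limma, and 8 higher and 1 lower at an unadjusted p under 0.05, with CXCL8 at 0.32. The ATF4 targets had 7 higher and 3 lower (ALDH1L2, SLC6A9 and SLC1A5) without GlcN, against 6.13% and 7.21% of all genes. With GlcN, 0 were higher and 8 lower, against 3.27% and 3.52%. The study lists several of them, among them ASNS, DDIT3 and TRIB3, as raised by GlcN itself.

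**Figure D5:**
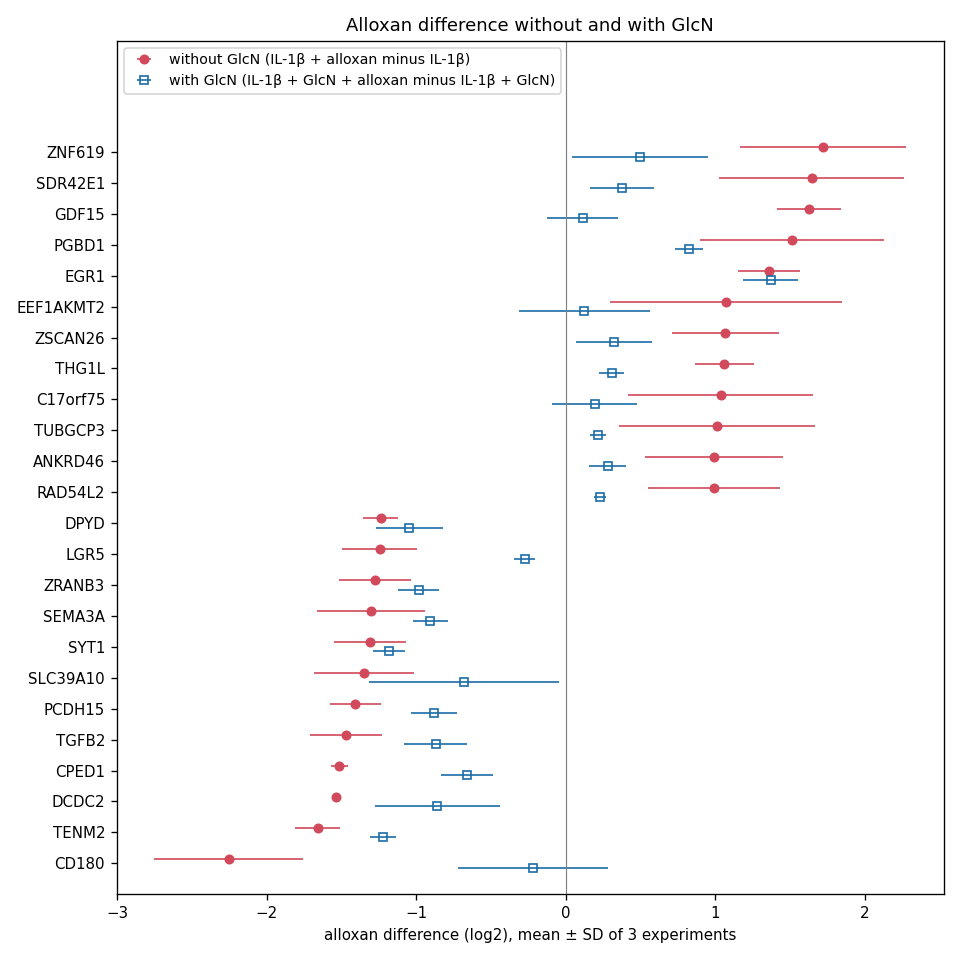
Alloxan difference (log2, mean ± SD of 3 experiments) without GlcN (red circles) and with GlcN (blue squares) for the 24 genes with the largest differences against IL-1β alone, 12 in each direction. All 24 have the same sign in both settings, EGR1 is at 1.36 and 1.37, and GDF15 and CD180 are near 0 with GlcN.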

How the data were processed

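Total RNA of MH7A cells was hybridised to Human Gene 1.0 ST arrays, 1 array for each of 5 conditions in each of 3 experiments. The authors deposited log2 values, 1 per transcript cluster, which they computed with RMA (background correction, quantile normalization and summary of probes), and these were kept as deposited. Since array medians differ between experiments, the deposited values are not on 1 common scale over all arrays. Whether the level differences come from the processing or from the cultures was not tested. The sources used here give no detection call. Precision is limited by how many arrays there are. The dose of alloxan is the one the labels give where it was combined with GlcN. Of 33297 clusters, 19460 carried 1 gene symbol, 1754 several and 12083 none in the platform annotation, and 19429 were named through a RefSeq gene ID. The brightest cluster of each of 18417 symbols was taken, and genes at or above the 20th percentile of the array on at least 3 of the 15 arrays were tested, which left 16872.

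The experiment numbers in the labels pair the arrays. Deviations from the group means were correlated between all 30 pairs of arrays with the same number (0.621 to 0.848). The negative values between the 60 pairs with different numbers (-0.656 to -0.068) follow in part from taking deviations from group means, and add no separate evidence. No 2 arrays were duplicates, since the highest correlation between arrays was 0.996 and the smallest median difference 0.054. Groups were compared with limma (version 3.58.1, R 4.3.3) by lmFit and eBayes (15 arrays, 5 group means and the experiment as a block, 8 residual degrees of freedom, two-sided, Benjamini-Hochberg adjustment over all genes). The labels call the experiments separate and do not say more. The block takes out level differences between experiments. The p-values therefore measure how far differences between groups vary from experiment to experiment, pooled over the 5 groups. The test was checked on simulated data. Per experiment, between 14.6% and 19.9% of genes had a difference of exactly 0 against resting cells, because low signals share rounded values.

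Gene lists were described by counts and medians, without set tests. The comparison and the lists were chosen with earlier results of these data known. Named genes were those of the study's IL-1β table with CXCL8, TNF, IL24, OGT and OGA, up to 12 per direction with the largest change among those called with the same sign in 3 of 3 experiments, up to 4 members per list with the smallest p, and all called members of lists with counts of 5 or fewer. Other list members, CFB, MIR21 and MIR221 were chosen after their values were seen. Promoter and miRNA sequences and gene spans came from RefSeq (GRCh38.p14). Figures were drawn with matplotlib 3.10.9. Alternatives were the fit without the block or with fewer groups, other filters, the mean over clusters, quantile normalization of all arrays, equal array medians, robust moderation with an intensity trend, the t-test of the methods (on the deposited values, not in GeneSpring), and leaving out each array or experiment.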

Additional observations from a re-analysis of the deposited data

Results flagged for a closer look

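In 4 named genes the alloxan difference without GlcN differed from that with GlcN, by limma's test of the difference itself. The study lists all 4 as raised by GlcN itself in IL-1β-stimulated cells. Their level before alloxan is counted is therefore not the same in the 2 settings, and the part of that level in the difference was not tested. GDF15 was at 1.63 without GlcN and 0.11 with GlcN, a difference of 1.516 (limma adjusted p = 0.00515). SESN2, a sestrin induced by p53 and ATF4, was at 0.80 and -0.09, a difference of 0.886 (limma adjusted p = 0.00515). DDIT4, an inhibitor of mTORC1 signalling, was at 0.88 and -0.27, a difference of 1.153 (limma adjusted p = 0.0309). THG1L, a tRNA-modifying enzyme, was at 1.06 and 0.31, a difference of 0.755 (limma adjusted p = 0.0309). GDF15, SESN2 and DDIT4 are known ATF4 or stress-response genes, and THG1L was higher with alloxan in both settings. Over all genes, 10 had a positive and 2 a negative difference past the threshold.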

How the results depend on the processing

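The calls depended on the block for the experiment and on the spread pooled over groups. Without the block, and also with the block over the 6 arrays of a contrast alone, 0 genes were called in either direction in limma for both alloxan contrasts and for alloxan with GlcN, and the 4 differences between settings with and without GlcN became 0 without the block. Unblocked, the SE was 0.596 for every gene. The block over the 9 arrays without GlcN left 593 genes higher against resting cells and 656 higher against IL-1β alone. The methods' t-test was run on the same RMA values and 16872 genes as limma and not on GeneSpring's values and filter, so that its counts do not repeat the study's step. At the methods' threshold (unadjusted p under 0.05 and 1.5-fold) it called 5 genes higher and 6 lower against resting cells, 2 and 5 against IL-1β alone, 2 and 3 for alloxan with GlcN, and 2 higher for IL-1β alone against resting cells. After Benjamini-Hochberg it called 0 in each.

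Leaving out 1 array or 1 experiment gave 245 to 759 genes higher and 482 to 1144 lower against resting cells, 263 to 974 higher and 405 to 977 lower against IL-1β alone, and 20 to 853 higher and 137 to 702 lower for alloxan with GlcN. IL-1β alone against resting cells then had 0 to 5 higher and 0 to 1 lower, the most without the resting array of experiment 2. In the same settings the list medians against resting cells ran from 0.236 to 0.481 for NF-κB targets, 0.258 to 0.385 for immediate early genes, 0.184 to 0.232 for p53 targets, -0.303 to -0.18 for collagens and matrix, -0.192 to -0.075 for matrix proteinases and -0.205 to -0.146 for sterol and fatty acid genes. Against IL-1β alone they ran from 0.066 to 0.165 for NF-κB targets, -0.361 to -0.261 for collagens and matrix and -0.177 to -0.103 for matrix proteinases.

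With only genes above the 50th percentile kept, medians against resting cells and against IL-1β alone were -0.409 and -0.374 for genes over 300 kb, -0.282 and -0.362 for collagens and matrix, and -0.253 and -0.264 for matrix proteinases. Of 266 called values of named genes, 0 changed sign in any setting that tested them. All 266 lost their call without the block or with 6 arrays, 111, 93 and 112 without experiments 1, 2 and 3, 42 without the GlcN arrays, and 12, 6, 3, 2 and 0 with equal medians, no filter, quantile normalization, robust moderation and mean clusters. The stricter filter tested 261 of them, which kept their call. No detection call was at hand to set the dim genes against background.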

Other observations

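Of 26 tested interferon-stimulated genes, 3 were higher with IL-1β and alloxan than in resting cells and 1 was lower, with a median of 0.01. Both counts are within about 2 genes of the shares over all genes (5.87% higher and 8.03% lower), so that they are no result about the list. The transcription factor IRF1 rose by 0.68 (limma adjusted p = 0.001) and the peptide transporter TAP1 by 0.55 and the antiviral enzyme OAS3 by 0.23, whereas IFIT1, which binds viral RNA, fell by 0.77 (limma adjusted p = 0.00483). IFIT1 lost its call without experiment 3 (-0.78, limma adjusted p = 0.108), and IRF1 without experiment 2 (0.64, limma adjusted p = 0.0654).

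Of 38 genes of DNA replication and mitosis, 6 were lower (against 8.03% of all genes) and 2 higher (against 5.87%, which is near their share of the list), with a median of -0.05 against resting cells. The lower ones included the kinetochore motor CENPE at -0.78, CDKN3 at -0.67, HMMR at -0.58 and cyclin CCNB1 at -0.30, while the replication licensing factor CDT1 rose by 0.50 and cyclin CCNE2 by 0.25. MKI67 and TOP2A did not pass, at -0.21 and -0.13. Of 28 autophagy and lysosome genes, 5 were higher (against 5.87% of all genes) and 2 lower (WIPI1 and ATG5; against 8.03%), with a median of 0.02, as for all genes. The receptor SQSTM1 rose by 0.50, ULK1 and MAP1LC3B by 0.33 each, ATG2A by 0.28 and CTSB by 0.22.

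Zinc finger genes were looked at after ZNF619 and ZSCAN26 were seen among the largest rises. Tested genes whose symbol starts with ZNF, ZSCAN or ZKSCAN numbered 507. Of these, 57 were higher against resting cells (11.2%, against 5.87% of all genes) and 19 lower (3.7%, against 8.03%). Against IL-1β alone, 59 were higher (11.6%, against 6.13%) and 21 lower (4.1%, against 7.21%). These genes had a median length of 23.38 kb, and many are similar in sequence.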
